A study of Mus musculus with 9 samples.

Results

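Immediate early transcription factors were followed in primary cultures of mouse granulosa cells, which line the ovarian follicle, nurse the oocyte and make steroid hormones. The members were every probe set to which the platform annotation gave a single gene symbol out of Jun, Junb, Fos, Fosb, Egr1, Egr2, Egr3, Nr4a1, Nr4a2 and Ier2, which made 18 of the 45037 probe sets tested and 10 of 18193 genes. All 9 arrays came from granulosa cells that had been punctured out of follicles of 20 to 26 day-old mice, given equine chorionic gonadotrophin (eCG) 48 h earlier, a hormone that drives follicle growth. The cells attached overnight in medium with 1% serum and were then held without serum for 24 h with an adenovirus for WNT4 (3 arrays), Cre recombinase (3 arrays) or enhanced GFP (3 arrays, the control), at a multiplicity of infection of about 50. The mice had various genotypes per the labels, and the sources used here do not give the genotype of any group. All 3 groups therefore share the hormone, the culture and an adenovirus, and no uninfected cells were measured.

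Immediate early genes are transcribed within minutes of a stimulus, without the need for new protein, and their messenger RNAs decay quickly. Growth factor, hormone and stress signals reach them through mitogen-activated protein kinases and cAMP-dependent protein kinase, which act on serum response factor, CREB and ATF proteins bound at their promoters. Jun and Fos proteins pair to form the activator protein AP-1, EGR proteins are zinc finger factors, and NR4A proteins are orphan nuclear receptors. In the ovary several of these genes, Egr1, Fos and Nr4a1 among them, are known to be induced quickly by the luteinizing hormone surge. A sample taken a day after infection records the level that is left by then, not a first response.

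The promoters of Jun, Fos and Junb are shown because Jun and Junb shared much of their pattern over the 9 arrays while Fos, their AP-1 partner, did not. Each sequence is the 250 bases before the start of transcription, 5′ to 3′ on the gene's strand, from RefSeq (GRCm38.p6). For Jun, at chr4:95052223-95052472 on the minus strand, capitals mark TGACATCA, the variant AP-1 and ATF site, 45 to 38 bases before the start. For Fos, at chr12:85473640-85473889 on the plus strand, and Junb, at chr8:84978749-84978998 on the minus strand, capitals mark TGACG, the core shared by sites of the cAMP response element.
Jun: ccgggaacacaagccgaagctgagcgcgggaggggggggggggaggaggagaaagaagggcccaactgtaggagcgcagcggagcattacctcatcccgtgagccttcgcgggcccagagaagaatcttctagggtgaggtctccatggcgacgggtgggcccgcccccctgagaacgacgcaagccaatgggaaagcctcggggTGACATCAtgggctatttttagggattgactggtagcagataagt
Fos: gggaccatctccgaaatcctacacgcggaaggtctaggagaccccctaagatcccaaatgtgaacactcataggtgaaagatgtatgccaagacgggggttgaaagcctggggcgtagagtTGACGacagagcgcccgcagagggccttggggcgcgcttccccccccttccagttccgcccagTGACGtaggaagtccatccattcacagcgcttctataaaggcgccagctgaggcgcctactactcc
Junb: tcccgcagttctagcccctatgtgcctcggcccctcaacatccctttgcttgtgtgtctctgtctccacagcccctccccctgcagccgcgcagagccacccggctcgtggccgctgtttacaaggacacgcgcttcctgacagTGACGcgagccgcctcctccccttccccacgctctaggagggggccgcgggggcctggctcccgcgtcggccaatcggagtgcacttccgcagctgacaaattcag
On both strands, TGACATCA stood in 2.93% of 32841 windows of this length, and of the members with an entry Jun alone held it. TGACG stood in 17.8% of windows. Fos held it 2 times (129 to 125 and 66 to 62 bases before the start), Junb 1 time (106 to 102), Fosb 1 time, Nr4a1 and Nr4a2 4 times each, and Egr2 2 times in each of 3 of its 5 windows. Those 3 Egr2 windows overlap and hold the same 2 sites. The full element TGACGTCA, which contains TGACG, stood in 1.55% of windows, and the AP-1 site TGANTCA in 6.75%. Neither stood in any of the 11 windows of the 7 members with an entry. The CArG box, the site of serum response factor, stood in 1.47% of windows and, among these members, in 4 of the 5 windows of Egr2. The 3 overlapping windows share 1 such site (CCATATATGG), and the other window holds a different one (CCTTTTTTGG). No window of Egr1, Egr3 or Ier2 was searched, and sites farther than 250 bases upstream were not searched for any member. A missing match therefore does not show that a gene lacks the site. These are matches of letters and do not show that a factor binds.

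The values are log2 expression levels made by the robust multi-array average (RMA), with array medians between 5.44 and 5.54, and they cannot be compared between probe sets. A call means a limma adjusted p under 0.05 (Benjamini-Hochberg over all probe sets). Most granulosa markers were well above background on all arrays, with Foxl2 between 10.1 and 10.7 and Inha between 12.9 and 14.0. Amh, 1 of 12 in that list, averaged under 6. Esr2 was dim in WNT4 cells, with a mean of 6.30, against 6.91 in Cre and 7.54 in GFP cells. In WNT4 against GFP, 5 of the 12 differences were above 0 and 7 below. Foxl2, Amh and Esr2 were lower there without overlap, and 0 were higher without overlap. In Cre against GFP, 2 were above 0 and 10 below, with Foxl2 and Amh lower without overlap. The 12 summed to between 34461 and 45869 on the linear RMA scale in WNT4 cells and 30489 to 40554 in Cre cells, against 36549 to 42418 in GFP cells. Wnt4 itself did not settle the labels, and its probe sets disagreed. Probe set 1450782_at read 8.97, 9.89 and 9.16 on the arrays labelled WNT4 and 11.25, 10.47 and 10.18 on those labelled Cre, against 9.93, 9.16 and 9.13 on those labelled GFP. Probe set 1441687_at read 9.91, 9.62 and 8.36 on WNT4 and 10.01, 9.81 and 9.05 on Cre arrays, against 9.13, 7.57 and 8.27 on GFP arrays. The WNT4 difference from GFP was -0.07 on the first and 0.97 on the second, and neither was called. The sources used here do not say whether either reads the viral transcript, so WNT4, Cre and GFP below name labels. The arrays WNT4 3 and Cre 3 stood apart from their groups. A list of 15 hypoxia genes averaged 3.07 and 2.79 above the GFP mean there, against 0.61 or less on each of the other 7 arrays. Its genes had median differences of 1.11 in WNT4 and 0.83 in Cre against GFP, with 0 of 15 called. The replicates are called biological in the labels, which name no animal or culture, so a p-value here rests on the spread between these arrays, part of which may be technical.

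None of the 18 member probe sets passed the test in any comparison. The nearest to a difference were Jun and Ier2. Jun, the AP-1 subunit with 2 probe sets here, was 2.44-fold and 2.93-fold higher in WNT4 than in GFP cells, and Ier2, a small nuclear early response protein, was 1.50-fold higher. On both genes every WNT4 and every Cre array lay above every GFP array. Fos and Egr1 did not share this pattern: their means were lower in WNT4 and in Cre cells than in GFP cells, and Egr1 was lower on every Cre array than on every GFP array. In WNT4 against GFP, 0.0155% of all probe sets were called, which is 7 of 45037. In Cre against GFP and in WNT4 against Cre, 0% were called.

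**Figure D1:**
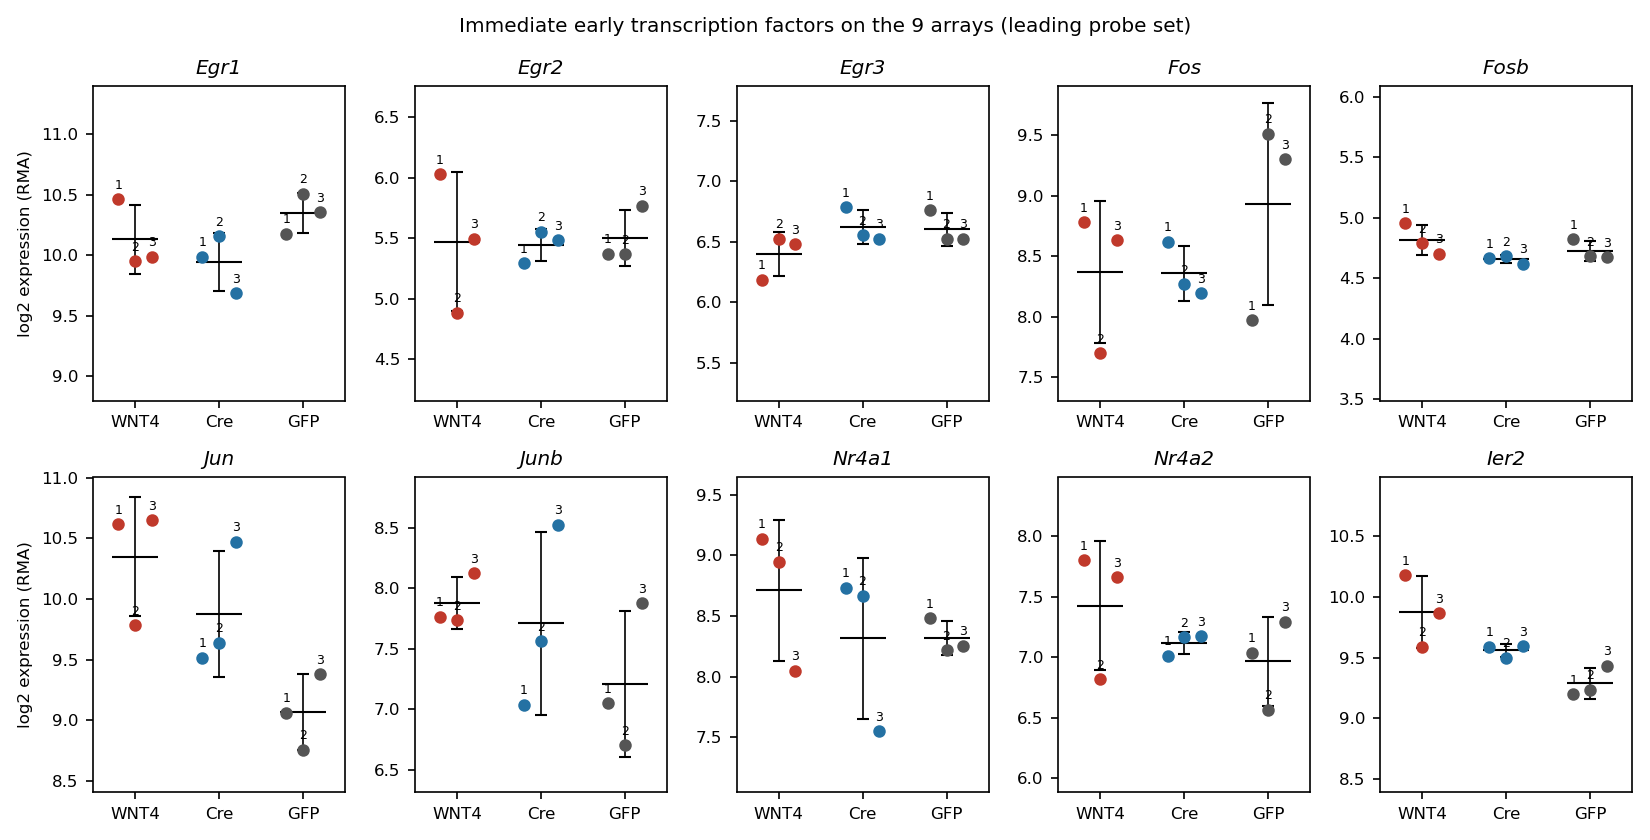
Level of each member's leading probe set (the one with the highest mean over the 9 arrays) on each array, in log2 RMA units. Points are arrays with their replicate number, the wide bar is the group mean and the whiskers are ± 1 SD (n = 3). Every panel spans the same range of log2 units, so the spreads can be compared by eye. The Jun and Ier2 points of WNT4 and Cre lie above those of GFP, while the Fos points overlap.

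Without the adjustment for multiple tests, 5 of the 18 probe sets had p under 0.05 in WNT4 against GFP, 3 in Cre against GFP and 0 in WNT4 against Cre. The share over all probe sets was 13% in WNT4 against GFP, 2.23% in Cre against GFP and 6.23% in WNT4 against Cre. By leading probe set, 2 of the 10 genes had p under 0.05 in WNT4 against GFP, where 17.1% of all genes had. In Cre against GFP it was 2 of 10 (2.53% of all genes), and in WNT4 against Cre 0 of 10 (8.16% of all genes). Groups that do not overlap give a second count. In WNT4 against GFP, 4 of 18 probe sets were higher without overlap, where 9.28% of all probe sets were, and 1 was lower, where 5.49% were. In Cre against GFP, 3 of 18 were higher, where 2.98% of all were, and 1 was lower, where 3.04% were. In WNT4 against Cre, 2 of 18 were higher, where 5.38% of all were, and 0 were lower, where 2.85% were. Jun's probe sets account for 2 of these members in each comparison with GFP, and they read 1 gene. In WNT4 against GFP the Nr4a2 probe sets 1447863_s_at (higher) and 1433422_at (lower) are also among them, in opposite directions. The WNT4 and Cre comparisons use the same GFP arrays, so their results are not independent of each other. The median difference of the 10 genes was 0.24 in WNT4 against GFP (0.02 over all genes), 0.01 in Cre against GFP (-0.01 over all genes) and 0.18 in WNT4 against Cre (0.04 over all genes).

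**Figure D2:**
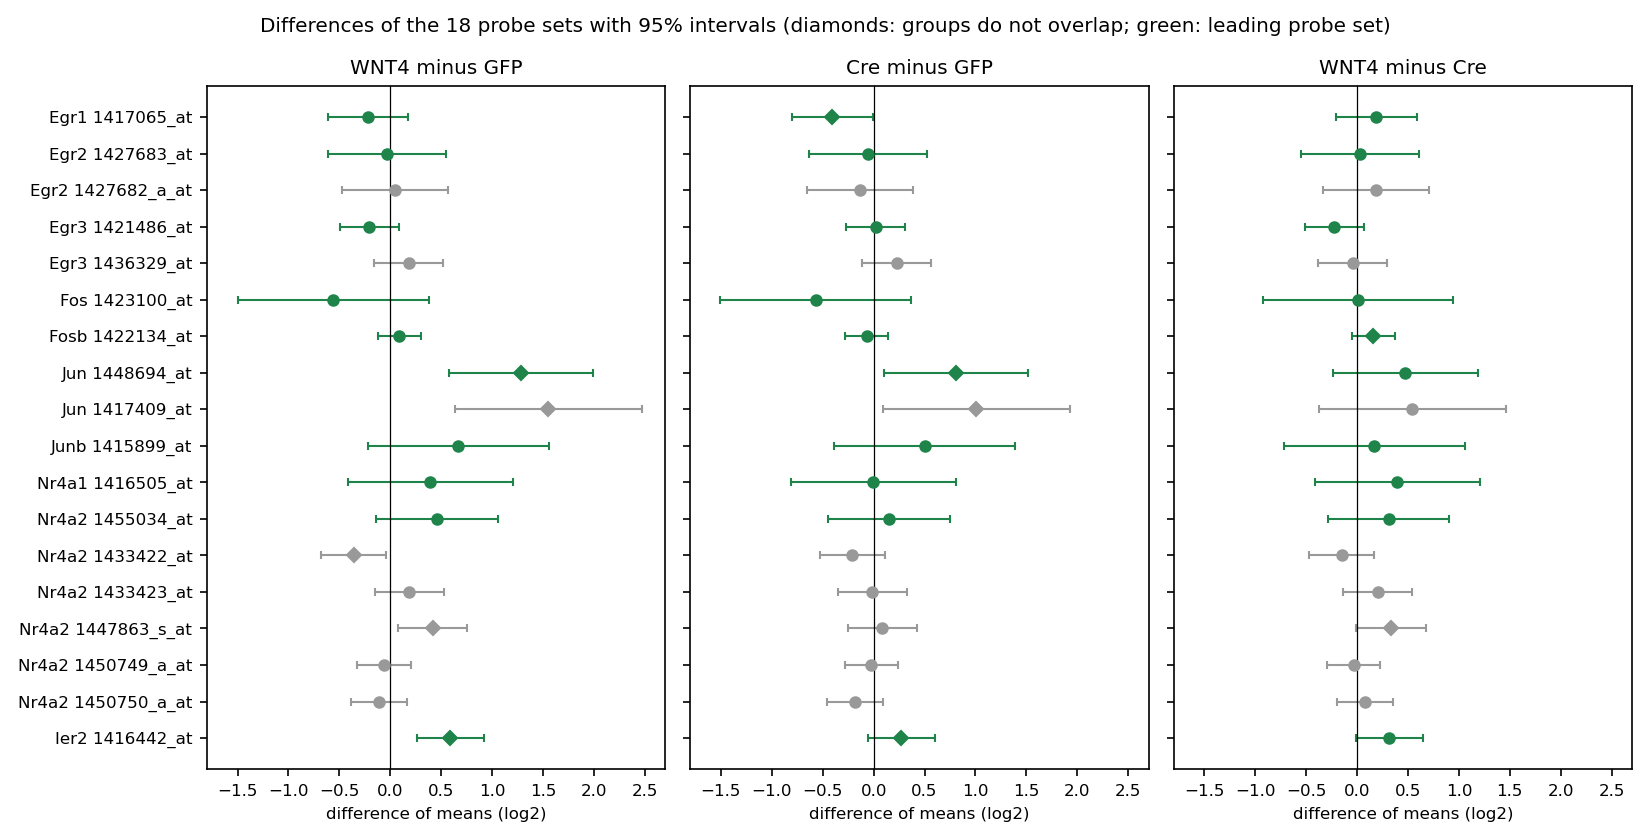
Differences between group means (log2 scale) for the 18 probe sets, with limma's 95% confidence intervals, for WNT4 minus GFP, Cre minus GFP and WNT4 minus Cre. Green marks the leading probe set of a gene, grey the others, and diamonds mark groups that do not overlap. The intervals of both Jun probe sets and of Ier2 lie above 0 in WNT4 minus GFP, but 0 of the 18 pass the adjusted threshold.

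Jun had the widest difference in both comparisons with GFP among the 10 members' leading probe sets. Its leading probe set, 1448694_at, had log2 levels of 10.62, 9.78 and 10.65 in WNT4 cells and 9.51, 9.64 and 10.47 in Cre cells, against 9.06, 8.75 and 9.38 in GFP cells. WNT4 2, Cre 1 and Cre 2 were at most 0.40 above the highest GFP array, while WNT4 1, WNT4 3 and Cre 3 were more than 1 above it. The difference of WNT4 from GFP was 1.28 ± 0.31 (SE; 95% interval 0.58 to 1.99; limma adjusted p = 0.190). That of Cre from GFP was 0.81 ± 0.31 (0.10 to 1.52; limma adjusted p = 1.00). The second probe set, 1417409_at, read 10.56, 9.62 and 10.78 in WNT4 cells and 9.19, 9.61 and 10.52 in Cre cells, against 8.92, 8.26 and 9.12 in GFP cells. It gave the same order of groups, with differences of 1.55 ± 0.40 (limma adjusted p = 0.215) and 1.01 ± 0.40 (limma adjusted p = 1.00), and followed the leading one with r = 0.99 over the 9 arrays. WNT4 and Cre cells overlapped on both probe sets, with a leading difference of 0.48 ± 0.31 (95% interval -0.23 to 1.18; limma adjusted p = 0.903).

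Whether Ier2 and the leading Jun probe set passed the test depended on 1 array. Without WNT4 2, Jun's leading probe set and Ier2 passed the test in WNT4 against GFP, at 1.57 ± 0.29 (limma adjusted p = 0.0491) and 0.73 ± 0.13 (limma adjusted p = 0.0425). Jun's second probe set did not, at 1.90 ± 0.39 (limma adjusted p = 0.0578), and 748 of all probe sets (1.66%) were then called. Over all alternatives tried, the adjusted p of Jun's leading probe set in that comparison ran from 0.0491 to 0.597 and Ier2's from 0.0425 to 0.591. Without Cre 3 and WNT4 3 together, Jun differed by 1.13 in WNT4 against GFP and by 0.51 in Cre against GFP. Jun was high on both arrays with high hypoxia genes, and as high on WNT4 1, where the hypoxia list was 0.61 above the GFP mean. The part of the hypoxia genes in the Jun level was not tested.

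Junb, a Jun relative that pairs with the same partners, read 7.77, 7.74 and 8.13 in WNT4 cells and 7.04, 7.57 and 8.53 in Cre cells, against 7.05, 6.70 and 7.88 in GFP cells. The array numbered 3 was the highest of each group, GFP included, and the groups overlapped. The mean of the leukocyte markers had this pattern too, each array numbered 3 being the highest of its group. It was 0.47 on WNT4 3, 0.55 on Cre 3 and 0.34 on GFP 3 relative to the GFP mean. Ptprc, Cd68, Adgre1, Csf1r and Cd14 followed the pattern in every group, and the other markers of the list did not. Among WNT4 arrays, Itgam, Cd3e and Tyrobp were highest on WNT4 2 (4.73, 6.92 and 6.43). Among Cre arrays, Lyz2 was highest on Cre 2 (9.57). Fcgr1 was lowest of its group on WNT4 3 and on GFP 3. Jun and the hypoxia list (3.07, 2.79 and 0.14 on WNT4 3, Cre 3 and GFP 3) were also highest on the array numbered 3 of each group. The part of leukocytes or hypoxia genes in the Junb level was not tested. Junb differed by 0.67 ± 0.39 in WNT4 against GFP (limma adjusted p = 0.513) and by 0.50 ± 0.39 in Cre against GFP (limma adjusted p = 1.00). Without Cre 3 and WNT4 3 its Cre difference was 0.09.

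Fos, which cannot pair with itself and binds DNA together with a Jun protein, had a within-group SD of 0.60, against 0.57 for Junb, 0.52 for Nr4a1, 0.45 for Jun, 0.24 for Egr1 and 0.19 for Ier2. It read 8.78, 7.70 and 8.63 in WNT4 cells and 8.62, 8.27 and 8.19 in Cre cells, against 7.97, 9.51 and 9.30 in GFP cells. GFP 1 was the lowest but 1 of the 9 arrays, and the other GFP arrays were the highest of all. The differences were -0.56 ± 0.41 in WNT4 (95% interval -1.50 to 0.38; limma adjusted p = 0.611) and -0.57 ± 0.41 in Cre (-1.51 to 0.37; limma adjusted p = 1.00). Without GFP 1 they were -1.04 and -1.05, without GFP 2 -0.27 and -0.28, and without WNT4 2 the WNT4 difference was -0.22. Between WNT4 and Cre cells the Fos difference was 0.01 ± 0.41. Fosb, the close relative of Fos, was near background, with 4.95, 4.79 and 4.70 in WNT4 cells and 4.67, 4.68 and 4.62 in Cre cells, against 4.82, 4.68 and 4.67 in GFP cells. Its WNT4 arrays lay above its Cre arrays without overlap, but by 0.16 ± 0.09 at a level where the arrays separate little (limma adjusted p = 0.876).

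Jun and Fos, partners in AP-1, were also set against each other within each array. With each gene set to its GFP mean, Jun minus Fos was 1.70, 1.95 and 1.88 in WNT4 cells and 0.76, 1.23 and 2.14 in Cre cells, against 0.95, -0.89 and -0.06 in GFP cells. The WNT4 values lay close together (mean 1.84 ± 0.13, SD, n = 3) and above all GFP values (± 0.92 around 0). The lowest Cre value, 0.76, lay below GFP 1. The separation of WNT4 from GFP was not particular to Fos: of the 9 other members set against Jun in this way, 7 gave WNT4 values above all GFP values (all but Junb and Nr4a1). These differences were formed after the values were seen and carry no test.

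The EGR factors overlapped between WNT4 and GFP cells on every probe set. Egr1, which is expressed in many cells after growth stimuli, read 10.46, 9.95 and 9.99 in WNT4 cells and 9.99, 10.16 and 9.69 in Cre cells, against 10.18, 10.51 and 10.36 in GFP cells. Every Cre array lay below every GFP array, though Cre 2 and GFP 1 were nearly level. Egr1 differed by -0.40 ± 0.17 in Cre (95% interval -0.80 to -0.01; limma adjusted p = 1.00) and by -0.21 ± 0.17 in WNT4 (limma adjusted p = 0.648), where WNT4 1 was as high as the GFP arrays. Without Cre 3 and WNT4 3 the Cre difference was -0.28. Egr2, known for its role in myelinating cells, was under 6 on average on both probe sets. Its leading probe set ran from 4.88 to 6.03 in WNT4 cells and from 5.30 to 5.55 in Cre cells, against 5.37 to 5.77 in GFP cells. Egr3 had a leading probe set with 6.19, 6.53 and 6.48 in WNT4 cells and 6.79, 6.56 and 6.53 in Cre cells, against 6.76, 6.53 and 6.53 in GFP cells. WNT4 2, Cre 3, GFP 2 and GFP 3 had the identical value 6.525104 on it, so it does not separate these arrays. The second Egr3 probe set had a mean of 4.36 over the 9 arrays, and the pair differed in sign in WNT4 against GFP (-0.21 and 0.18).

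Nr4a1, the nuclear receptor also called Nur77, was low on the arrays with high hypoxia genes. It read 9.14, 8.95 and 8.05 in WNT4 cells and 8.73, 8.67 and 7.55 in Cre cells, against 8.48, 8.22 and 8.25 in GFP cells. Cre 3 and WNT4 3 were the lowest of the 9 arrays and the other 4 arrays of these groups were above all GFP arrays. The pooled differences were 0.39 ± 0.36 in WNT4 (limma adjusted p = 0.687) and -0.003 ± 0.36 in Cre (limma adjusted p = 1.00), and without Cre 3 and WNT4 3 they were 0.72 in WNT4 and 0.38 in Cre. Without WNT4 1 the WNT4 difference was 0.18. On the same arrays the granulosa markers averaged -0.54 (WNT4 3) and -0.51 (Cre 3) relative to the GFP mean, and the part of cell identity or hypoxia in the Nr4a1 level was not tested. In RNA from whole cultures, fewer cells of a type and less RNA per cell cannot be told apart.

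Nr4a2, the receptor also called Nurr1, had 6 probe sets that did not follow one another. The leading one, 1455034_at, read 7.80, 6.82 and 7.66 in WNT4 cells and 7.01, 7.16 and 7.18 in Cre cells, against 7.04, 6.57 and 7.29 in GFP cells, a difference of 0.46 ± 0.26 in WNT4 against GFP (limma adjusted p = 0.501). The probe set 1447863_s_at was higher on all WNT4 arrays than on all others, by 0.42 ± 0.15 against GFP (limma adjusted p = 0.302) and 0.33 ± 0.15 against Cre (limma adjusted p = 0.807). The probe set 1433422_at was lower in WNT4 than in GFP cells without overlap, with a difference of -0.36 ± 0.14 (limma adjusted p = 0.330). Differences of the 6 probe sets ran from -0.36 to 0.46 in WNT4 against GFP, and the r between pairs of them from -0.74 to 0.48 over the 9 arrays. The mean of 4 of the 6 was under 6, and which transcripts each one reads was not analysed here, so no single direction can be given for Nr4a2.

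Ier2, a nuclear protein that growth factors and serum induce, read 10.18, 9.59 and 9.86 in WNT4 cells and 9.59, 9.50 and 9.59 in Cre cells, against 9.20, 9.24 and 9.43 in GFP cells. All WNT4 and Cre arrays lay above the highest GFP array. The differences were 0.59 ± 0.15 in WNT4 (95% interval 0.26 to 0.92; limma adjusted p = 0.194), 0.27 ± 0.15 in Cre (limma adjusted p = 1.00) and 0.32 ± 0.15 in WNT4 against Cre (limma adjusted p = 0.814). On WNT4 3 and Cre 3 Ier2 was 0.58 and 0.30 above the GFP mean, no higher than on WNT4 1, at 0.89.

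**Figure D3:**
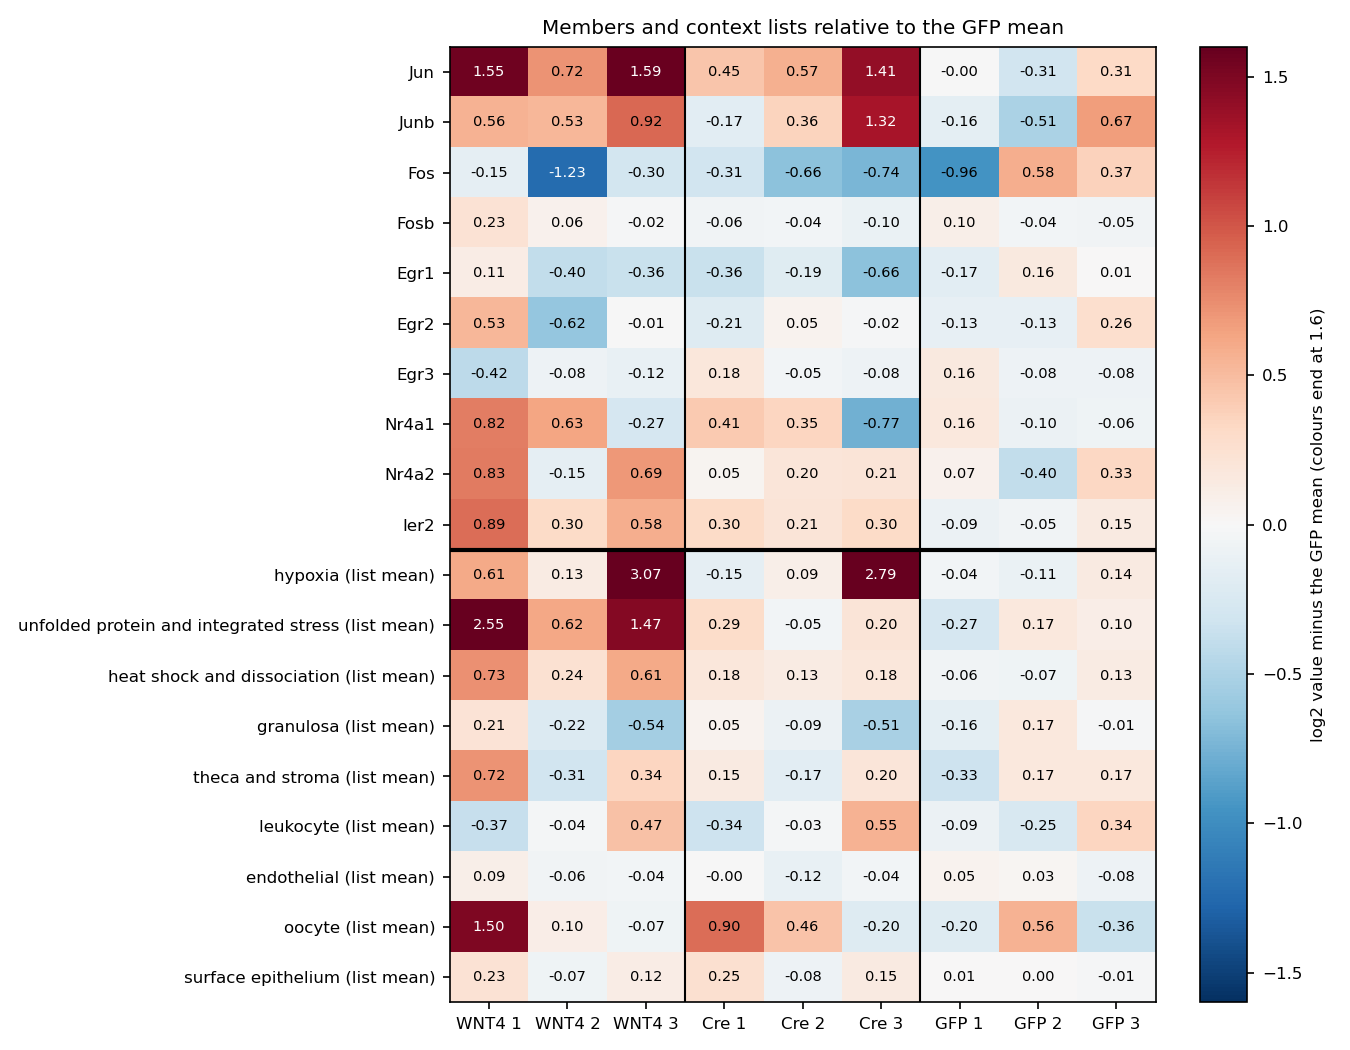
Each member's level (leading probe set) and the mean level of 9 lists of context genes and cell type markers, on each array, as log2 value minus the GFP mean. Colours end at 1.6 and the number in each cell is the value. The hypoxia list reaches 3.07 on WNT4 3 and 2.79 on Cre 3, and Jun is above 1.4 on these arrays and on WNT4 1. The unfolded protein list reads 2.55, 0.62 and 1.47 in WNT4 cells (by replicate number), against 0.29 or less in Cre and GFP cells. Jun is 0.45 to 0.72 on the remaining WNT4 and Cre arrays. The part of either list in the Jun level was not tested.

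WNT4 1 was high for most members. Of the 10, 8 lay above their GFP mean on this array, against 2 (GFP 2) to 7 (GFP 3) on the other 8 arrays. The mean over the 10 was 0.50, against means of -0.02 and 0.27 on the other WNT4 arrays and -0.10 to 0.19 on the Cre and GFP arrays. WNT4 1 also had the widest gap between 3′ and 5′ control probe sets, a sign of RNA quality, at 1.38 for actin and 2.17 for Gapdh, against 0.98 to 1.302 and 0.95 to 1.88 on the other 8 arrays. Its upper quartile of all values was 8.003, against 7.68 to 7.87. The same array had the highest list means for unfolded protein genes (2.55), heat shock genes (0.73), theca and stroma markers (0.72) and oocyte markers (1.50). The whole list of 15 unfolded protein genes had differences above 0 in WNT4 against GFP (median 1.29), with 13 of 15 at unadjusted p under 0.05, where 17.1% of all genes were, and 0 called. All 11 heat shock genes had differences above 0 (median 0.41), where 53.9% of all genes had, with 0 called. The 10 oocyte markers summed to between 1518 and 5502 on the linear RMA scale in WNT4 cells and 1349 to 3458 in Cre cells, against 1179 to 2587 in GFP cells, with Bmp15 and Figla averaging under 6. The 12 theca and stroma markers summed to between 18487 and 30365 in WNT4 cells and 14448 to 20738 in Cre cells, against 15090 to 19313 in GFP cells. Cyp17a1, a defining theca enzyme, averaged under 6. The highest of the 12 on every WNT4 array was Cyp11a1 (14.48, 13.76 and 13.74), which weighed most in those linear sums. Which cells its RNA came from, granulosa cells included, cannot be told here, so these sums do not measure theca or stroma content. Cyp11a1 read 12.33, 13.65 and 13.26 in Cre cells, against 13.31, 12.03 and 13.01 in GFP cells. Leukocyte markers summed to between 913 and 1819 in WNT4 cells and 910 to 1909 in Cre cells, against 948 to 1795 in GFP cells, and 3 of 10 averaged under 6. Of the endothelial markers 6 of 9 and of the surface epithelium markers 5 of 8 averaged under 6. None of the genes in these 9 lists was called in any comparison. Their part in the members' levels was not tested.

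Other genes of the same circuit were described from 5 lists. Among 11 further AP-1, EGR and NR4A family genes, 0 were called in any comparison, and the median difference was 0.33 in WNT4 against GFP, 0.12 in Cre against GFP and 0.13 in WNT4 against Cre. Atf3, a stress-induced relative of Jun, differed by 1.68 ± 0.54 in WNT4 against GFP (limma adjusted p = 0.264), with 9.42, 7.12 and 8.39 in WNT4 cells and 6.78, 6.45 and 7.81 in Cre cells, against 6.59, 6.43 and 6.85 in GFP cells. Atf3 was higher on all WNT4 arrays than on all GFP arrays, and it was highest on WNT4 1, WNT4 3 and Cre 3, the arrays where Jun was highest. Jund, the broadly expressed Jun relative, differed by 0.33 ± 0.12 in WNT4 (limma adjusted p = 0.294) and 0.20 ± 0.12 in Cre (limma adjusted p = 1.00). Fosl1, a Fos relative that averaged under 6, differed by 0.42 ± 0.30 in Cre against GFP. Nr4a3, the third NR4A receptor, differed by -0.27 ± 0.16 in WNT4 against Cre.

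Among 33 other immediate early genes, 0 were called in any comparison, and 29 differences were above 0 in WNT4 against GFP (median 0.31), 25 in Cre against GFP (median 0.23) and 24 in WNT4 against Cre (median 0.26). Over all genes, 53.9%, 45.8% and 61.0% of the differences were above 0 in these comparisons. Btg2, an antiproliferative p53 target, came nearest to a call, with 10.30, 9.85 and 10.19 in WNT4 cells and 9.002, 9.39 and 9.79 in Cre cells, against 8.58, 8.34 and 8.80 in GFP cells. The groups overlapped in none of the 3 comparisons. Btg2 differed by 1.54 ± 0.21 in WNT4 against GFP (limma adjusted p = 0.084), 0.82 ± 0.21 in Cre against GFP (limma adjusted p = 1.00) and 0.72 ± 0.21 in WNT4 against Cre (limma adjusted p = 0.773). Klf4, a zinc finger factor, differed by 2.55 ± 0.51 in WNT4 against GFP (limma adjusted p = 0.171). Btg1, a relative of Btg2, differed by 0.73 ± 0.28 in Cre against GFP, and Ifrd1, an interferon-related regulator, by 1.20 ± 0.41 in WNT4 against Cre.

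The 18 feedback inhibitors, which shut the circuit off, had 0 calls and a median difference of 0.31 in WNT4 against GFP, 0.22 in Cre against GFP and 0.10 in WNT4 against Cre. Nab1, a corepressor that binds EGR proteins, read 11.16, 10.67 and 10.84 in WNT4 cells and 9.82, 10.42 and 10.23 in Cre cells, against 10.22, 9.67 and 10.10 in GFP cells. All WNT4 arrays lay above all others, by 0.89 ± 0.20 against GFP (limma adjusted p = 0.178) and 0.73 ± 0.20 against Cre (limma adjusted p = 0.773). Dusp4, a phosphatase that inactivates mitogen-activated protein kinases in the nucleus, was above every GFP array on all WNT4 and Cre arrays, by 0.84 ± 0.20 in WNT4 (limma adjusted p = 0.187) and 0.67 ± 0.20 in Cre (limma adjusted p = 1.00). Spred2, an inhibitor of Ras signalling to Raf, differed by 0.51 ± 0.18 in Cre against GFP, and Zfp36, which speeds the decay of AU-rich messenger RNAs, by 0.46 ± 0.21 in WNT4 against Cre.

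The upstream kinases and factors, 20 of 25 analysed here, had 0 calls and medians of 0.13 in WNT4 against GFP, 0.03 in Cre against GFP and 0.13 in WNT4 against Cre. Mapk14, the p38 alpha kinase, differed by 0.38 ± 0.13 in WNT4 and 0.22 ± 0.13 in Cre against GFP. Mapk9, a JUN N-terminal kinase, differed by 0.38 ± 0.14 in WNT4 against GFP and 0.42 ± 0.14 in WNT4 against Cre. Braf, a kinase above the ERK pathway, differed by -0.40 ± 0.18 in Cre against GFP, and Prkar1a, a regulatory subunit of cAMP-dependent protein kinase, by 0.46 ± 0.20 in WNT4 against Cre. The downstream targets, 19 of 21 analysed here, had 0 calls and medians of 0.34 in WNT4 against GFP, 0.16 in Cre against GFP and 0.06 in WNT4 against Cre. Of these 19 genes, 10 averaged under 6. Star, which carries cholesterol into mitochondria for steroid synthesis, differed by 2.05 ± 0.50 in WNT4 against GFP (limma adjusted p = 0.192). Adamts1, a matrix protease of ovulation, differed by 1.24 ± 0.31 in WNT4 against GFP (limma adjusted p = 0.194) and 0.85 ± 0.31 in WNT4 against Cre (limma adjusted p = 0.773). Plat and Plau, the plasminogen activators, differed by 0.70 ± 0.26 and -0.32 ± 0.15 in Cre against GFP, but Plau averaged under 6. Timp1, a metalloprotease inhibitor, differed by 0.60 ± 0.19 in WNT4 against Cre.

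**Figure D4:**
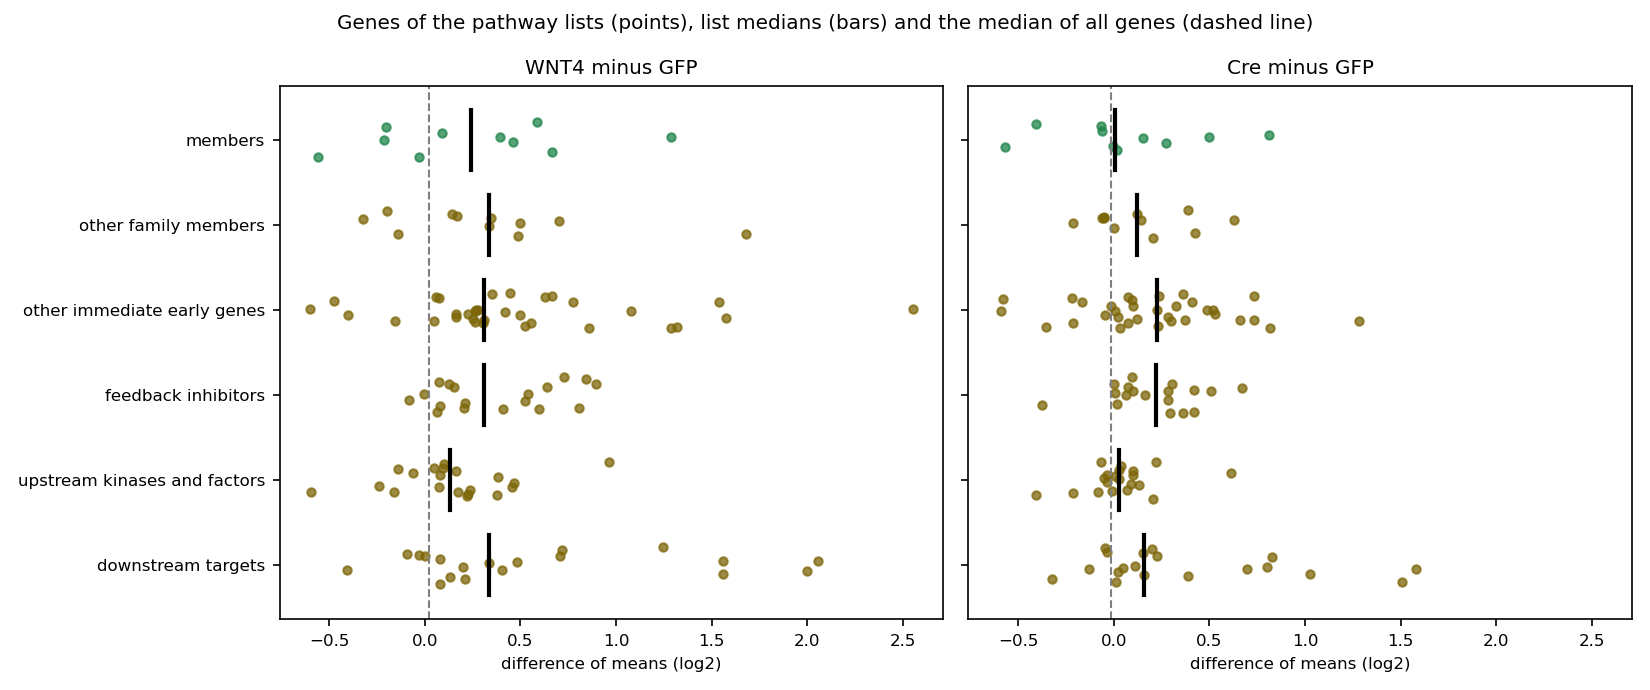
Differences of group means (log2 scale) for the leading probe set of each gene in the members and in 5 lists of related genes, in WNT4 minus GFP (left) and Cre minus GFP (right). Black bars are list medians and the dashed line is the median of all genes (0.02 and -0.01). The list medians lie between 0.13 and 0.34 in WNT4 minus GFP, and 0 of the genes shown passed the adjusted threshold.

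The genes whose levels followed each profile most closely over the 9 arrays were taken from 10548 candidate genes with a mean of at least 6. These are descriptions, since high correlations are to be had by choosing among so many genes over 9 arrays that share groups and replicate numbers. For Fos, the closest were Sgo1 (r = 0.97), Smc2 (0.96), Prim2 (0.94), Hmgn3 (0.92) and Cep55 (0.92). Sgo1 guards sister chromatid cohesion, Smc2 is a condensin subunit, Prim2 a primase subunit, Hmgn3 a nucleosome-binding protein and Cep55 a cytokinesis protein. Cep55 read 7.24, 5.19 and 6.12 in WNT4 cells and 6.75, 6.06 and 6.33 in Cre cells, against 5.50, 7.79 and 7.01 in GFP cells. Like Fos, it was low on WNT4 2 and GFP 1 and high on GFP 2 and GFP 3. For Egr1 the closest were Nup37, Vps13d, Etfb, Smim13 and Hikeshi (r between 0.90 and 0.92). For the mean of the 10 members they were Slc33a1, Sp3, Hnrnpul2, Pofut1, Rpl27, Etaa1, Med22, Lats1, Umad1 and Usp24 (r between 0.96 and 0.99). For Jun, which was added to these profiles after its values were seen, they were Lonrf3 (r = 0.99), Nufip1, Nrp1, Rela and Stat6 (0.98 each). Rela, the p65 subunit of NF-kappaB, read 10.73, 10.41 and 10.93 in WNT4 cells and 10.18, 10.19 and 10.68 in Cre cells, against 10.002, 9.77 and 10.24 in GFP cells, lowest on GFP 2 like Jun.

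**Figure D5:**
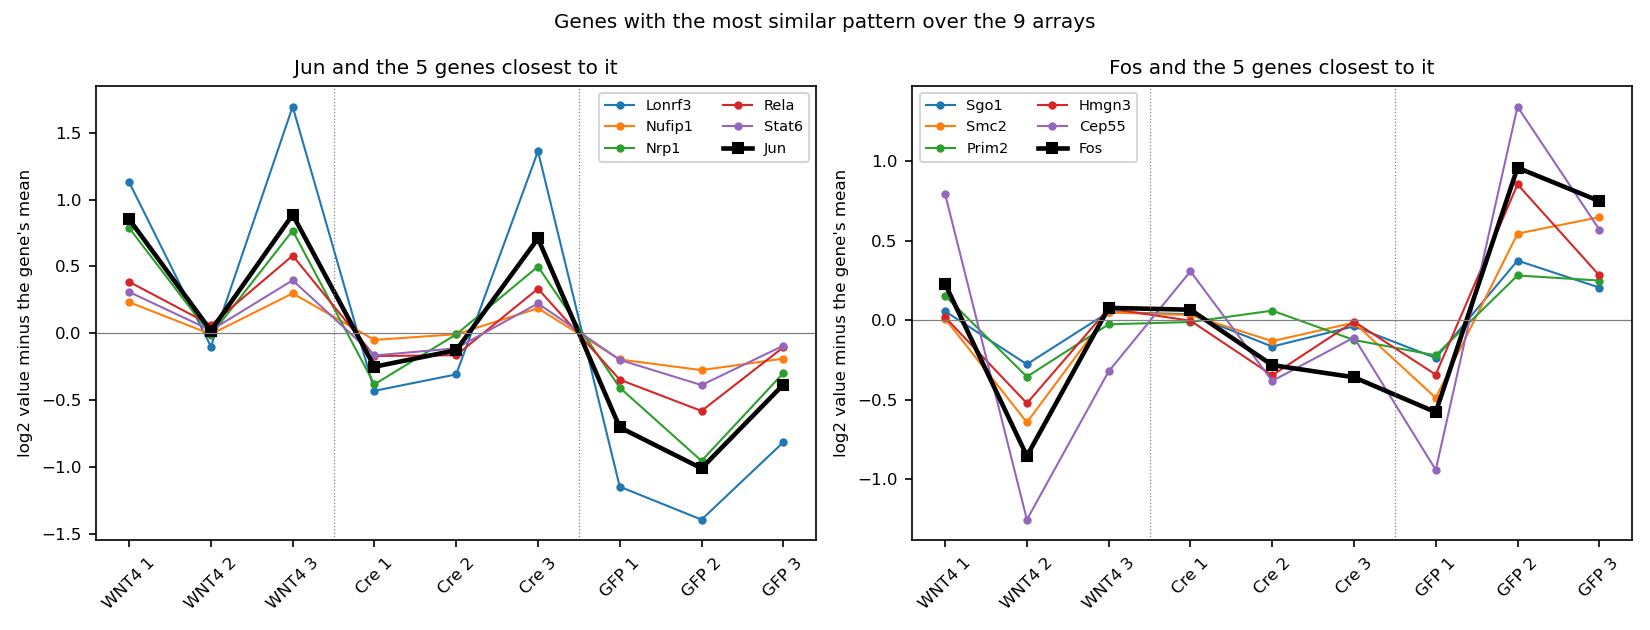
Level on each of the 9 arrays of Jun (left) and Fos (right), in black, and of the 5 genes with the highest Pearson correlation to each, as log2 value minus the gene's own mean over the arrays. Jun and its 5 genes are lowest on GFP 2 and high on WNT4 1, WNT4 3 and Cre 3. On GFP 3, Nrp1, Rela and Stat6 lie above Cre 1, unlike Jun. Fos and its 5 genes are low on WNT4 2 and GFP 1 and high on GFP 2.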

How the data were processed

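Expression was measured on Affymetrix mouse arrays. The authors deposited log2 values, which the submitters' processing notes credit to RMA with no version. RMA subtracts background, equalises the arrays and merges the probes of a set, so array-wide differences in signal are already reduced. Of 45101 probe sets, 64 controls were left out. Gene names came from the platform annotation (34945 probe sets had 1 symbol, 932 several, 9160 are unnamed), with 34741 updated by Entrez ID through RefSeq. Groups and replicate numbers came from the labels. Exactly equal values made up at most 4.53% of any pair of arrays.

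The model had 1 mean per group over all 9 arrays (limma 3.58.1, R 4.3.3, lmFit with eBayes, two-sided, degrees of freedom 6 residual plus 2.8 prior) and was tested on simulated data. The simulated errors were independent between arrays, so that check does not cover the correlation between arrays seen here. With 3 against 3 arrays, an exact permutation test cannot go below p = 0.1. Errors after a difference are standard errors. The number of arrays limits the precision.

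Members and lists were chosen with earlier results of these data known. Named were all member probe sets, from each pathway list and comparison the called genes and the pair with the lowest p, and the closest patterns (10 for the members' mean, 5 each for Egr1 and Fos). The 14 lists besides the members are those in the text and the heat map.

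Alternatives were a replicate block, fits of 1 pair of groups, quantile normalization, median or 75th percentile centring, a minimum mean of 6, an intensity trend, array weights, averaging the probe sets of a gene, leaving out probe sets that may cross-hybridise, and leaving out each array. Same-numbered arrays had deviations from the group means that correlated at 0.21, 0.24 and 0.77 in WNT4 and Cre, at -0.08, 0.01 and 0.35 in WNT4 and GFP, and at -0.04, -0.31 and 0.31 in Cre and GFP. As every pair exceeds 0.1 in WNT4 and Cre alone, numbers were taken to pair arrays there, from the data and not the labels. WNT4 1 followed Cre 2 (0.32) more than Cre 1, and WNT4 2 followed Cre 1 (0.28) more than Cre 2, so the rule cannot show that these numbers are paired.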

Additional observations from a re-analysis of the deposited data

How the results depend on the processing

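The count of called member probe sets was 0 under 20 of 21 alternatives in WNT4 against GFP and under all 21 in each of the other comparisons, the replicate block included (0 in each). The exception was the fit without WNT4 2, with 2 called (leaving out single arrays, 0 to 2). The alternatives are not independent checks. Leaving out probe sets that may cross-hybridise re-counts the main fit, so its 0 was fixed in advance. In WNT4 against GFP, the replicate block, the fits of 1 pair of groups, the intensity trend and leaving out a Cre array keep every difference. They change only the estimate of the spread. The median difference of the members ran from 0.09 to 0.43 in WNT4 against GFP, from -0.05 to 0.17 in Cre against GFP and from 0.07 to 0.30 in WNT4 against Cre; without WNT4 1 it was 0.10 in WNT4 against GFP. Centring on the 75th percentile shifted the median of all probe sets by -0.15 in WNT4 against GFP, so that 30.1% of the probe sets at unadjusted p under 0.05 were higher, against 70.0% as deposited; Jun (1.13) and Ier2 (0.44) stayed above 0 there. Signs turned for some members, and the cause was not tested. Their main differences reached 0.19 (Egr1) and 0.17 (Junb) in WNT4 against Cre and 0.15 (Nr4a2) in Cre against GFP. In WNT4 against GFP, Egr2 turned to 0.0013 (quantile), 0.010 (median centring), 0.0075 (mean of probe sets) and 0.087 (without the arrays numbered 3), and ran from -0.31 to 0.26 without single arrays; Fosb turned to -0.062 (75th percentile). In Cre against GFP, Egr2 turned to 0.054 (without the arrays numbered 3; single arrays -0.125 to 0.074), Egr3 to -0.0026 (quantile) and -0.030 (75th percentile; single arrays -0.063 to 0.097), Nr4a1 to 0.029 (median centring), 0.033 (array weights), 0.38 (without Cre 3 and WNT4 3) and 0.35 (without the arrays numbered 3; single arrays -0.21 to 0.38), and Nr4a2 to -0.033 (mean of probe sets; single arrays -0.048 to 0.31). In WNT4 against Cre, Egr1 turned to -0.0086 (quantile), Egr2 to -0.078 (75th percentile) and -0.013 (array weights; single arrays -0.25 to 0.32), and Fos to -0.12 (quantile), -0.095 (75th percentile) and -0.21 (without Cre 3 and WNT4 3, and without the arrays numbered 3; single arrays -0.20 to 0.34). Junb ran from -0.17 to 0.57 there without single arrays. The fits without Cre 3 and WNT4 3 and without the arrays numbered 3 were chosen after seeing the data.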

Other observations

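Some early response genes outside the members were far from their group on Cre 3 and WNT4 3, and were chosen after their values were seen. Ier3, a stress-responsive survival gene, read 11.10, 11.40 and 13.56 in WNT4 cells and 11.74, 11.57 and 13.29 in Cre cells, against 11.35, 11.37 and 11.68 in GFP cells. Maff, a small MAF factor, read 7.60, 7.32 and 9.40 in WNT4 cells and 7.50, 7.26 and 9.32 in Cre cells, against 6.84, 7.60 and 7.77 in GFP cells. Both were high on the arrays where the hypoxia list was high.

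Id1 and Id3, inhibitors of DNA binding that BMP signals induce, were low on these arrays. Id3 read 11.58, 11.48 and 10.04 in WNT4 cells and 11.61, 11.77 and 10.45 in Cre cells, against 11.64, 11.62 and 11.64 in GFP cells. Id1 read 8.72, 9.16 and 8.06 in WNT4 cells and 9.25, 9.05 and 8.20 in Cre cells, against 8.95, 9.08 and 9.10 in GFP cells. Ptgs2, the prostaglandin synthase of ovulation, read 6.99, 5.13 and 7.99 in WNT4 cells and 6.07, 4.64 and 7.14 in Cre cells, against 4.72, 5.40 and 5.33 in GFP cells, and overlapped between the groups.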
